A study of Mus musculus with 6 samples.

Results

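Polycomb subunits were followed in mouse iECDCs (epicardium-derived cardiosphere-derived cells immortalised with a telomerase lentivirus) before and after induction toward a cardiac fate. The members were the rows of the deposited count table whose gene names were Ezh1, Ezh2, Eed, Suz12, Bmi1, Cbx2, Cbx6, Cbx7 and Cbx8. All 9 were found, out of 54532 genes in the table, and all 9 had enough reads to be tested. Control and induced cells were both of C57BL/6 origin, from the heart ventricle, and at passage 30. The 3 induced samples had received 10 µM 5-azacytidine (5-aza), a cytidine analogue that blocks DNA methyltransferases, for 3 days, followed by 4 weeks in IMDM with 2% serum as the labels give it. The 3 control samples carry no separate culture description. The study's methods name another medium and a shorter culture for the induction. For routine growth of these cells they give a medium with more serum. Drug, reduced serum and weeks of further culture are described for the induced group only, so they cannot be told apart in this comparison. The cells are 1 immortalised line, and the labels call the 3 samples of a group separate samples without naming separate cultures, so the p-values measure the spread between these samples, which may be technical.

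Polycomb proteins form 2 kinds of chromatin complex that keep genes silent. PRC2 places methyl groups on lysine residues of histone H3 through the alternative enzymes Ezh1 and Ezh2, with Eed and Suz12 as the subunits both enzymes need. PRC1 ubiquitinates histone H2A. Its canonical form is built on a PCGF protein, either Bmi1 or Pcgf2, and on 1 CBX protein, whose chromodomain docks on the mark left by PRC2. Ezh2 is known as the form of dividing cells and Ezh1 as the form that persists in resting ones, and exchange of one CBX protein for another is known from differentiating stem cells.

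Promoter windows of 300 bases, from 250 before to 50 after the annotated start, were read from a RefSeq table on GRCm38.p6, which held 8 of the 9 members and not Cbx2. They are shown because 5-aza acts on methylation of cytosine in CpG dinucleotides, and because a division-linked promoter element is a known feature of Ezh2. Below are the windows of a PRC2 pair that moved in opposite directions and of Suz12 and Cbx7. They lie at chr6:47594981-47595280 on the minus strand (Ezh2), chr11:101226414-101226713 on the minus strand (Ezh1), chr11:79992856-79993155 on the plus strand (Suz12) and chr15:79932597-79932896 on the minus strand (Cbx7). Each is written 5′ to 3′ on the strand of its gene, and capitals mark a match to an E2F site. The Ezh2 and Cbx7 windows are at starts inside the spans the count table gives for these genes.
Ezh2: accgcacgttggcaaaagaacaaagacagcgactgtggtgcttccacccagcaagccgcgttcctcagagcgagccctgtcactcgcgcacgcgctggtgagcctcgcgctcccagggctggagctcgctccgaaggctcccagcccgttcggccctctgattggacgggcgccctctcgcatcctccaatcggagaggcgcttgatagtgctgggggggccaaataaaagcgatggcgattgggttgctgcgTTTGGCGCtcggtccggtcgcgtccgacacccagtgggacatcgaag
Ezh1: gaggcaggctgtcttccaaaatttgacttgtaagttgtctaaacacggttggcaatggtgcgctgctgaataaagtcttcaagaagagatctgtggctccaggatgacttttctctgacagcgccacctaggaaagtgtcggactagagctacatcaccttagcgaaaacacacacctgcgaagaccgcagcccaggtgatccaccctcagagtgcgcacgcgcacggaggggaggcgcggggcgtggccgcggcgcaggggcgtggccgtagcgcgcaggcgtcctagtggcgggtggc
Suz12: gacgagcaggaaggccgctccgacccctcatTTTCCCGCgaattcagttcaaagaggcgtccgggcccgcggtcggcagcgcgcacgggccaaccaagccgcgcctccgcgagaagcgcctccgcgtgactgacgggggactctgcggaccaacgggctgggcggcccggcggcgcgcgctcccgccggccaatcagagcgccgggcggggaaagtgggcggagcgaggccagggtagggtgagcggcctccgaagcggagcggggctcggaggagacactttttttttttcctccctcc
Cbx7: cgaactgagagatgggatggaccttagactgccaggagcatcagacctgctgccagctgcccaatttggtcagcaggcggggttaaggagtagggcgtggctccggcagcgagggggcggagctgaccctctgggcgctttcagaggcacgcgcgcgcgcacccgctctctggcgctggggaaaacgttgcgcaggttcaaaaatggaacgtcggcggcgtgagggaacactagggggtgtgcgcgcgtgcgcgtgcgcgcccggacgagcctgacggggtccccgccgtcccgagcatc
An E2F site was searched as TTTCCCGC or TTTGGCGC on both strands and was found in 1.56% of the 32851 promoter windows in the table. Among the 8 members, Ezh2 held TTTGGCGC beginning 4 bases into the transcript that RefSeq starts there, and Suz12 held TTTCCCGC beginning 219 bases upstream of the start. The other 6 held neither. A CCAAT box, present in 37.4% of all windows on either strand, was found in Ezh2 (3 matches), Eed, Suz12, Cbx7 and Cbx8. The element TTTGAA of late cell cycle genes, present in 17.9% of windows, was found in Eed, Suz12 and Cbx7. These are letter matches and not measured binding.

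All 8 windows held more CpG than the median window. Their counts ran from 17 CpG dinucleotides in Eed to 41 in Suz12, against a median of 7 over the 32851 windows. The Eed count was above 68.6% of windows and the Suz12 count above 96.5%. The windows include those of genes with too few reads to be tested here. A comparison with tested genes alone was not made, so these counts are not shown to be particular to the subunits. Ezh1 and Bmi1 had 23, Cbx8 had 24, Ezh2 and Cbx6 had 31, and Cbx7 had 33. Ezh2, which fell the most, and Cbx7, which rose the most, had similar CpG counts in these windows. The part of CpG content in the change of any subunit was not tested. DNA methylation was not analysed here.

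**Figure D1:**
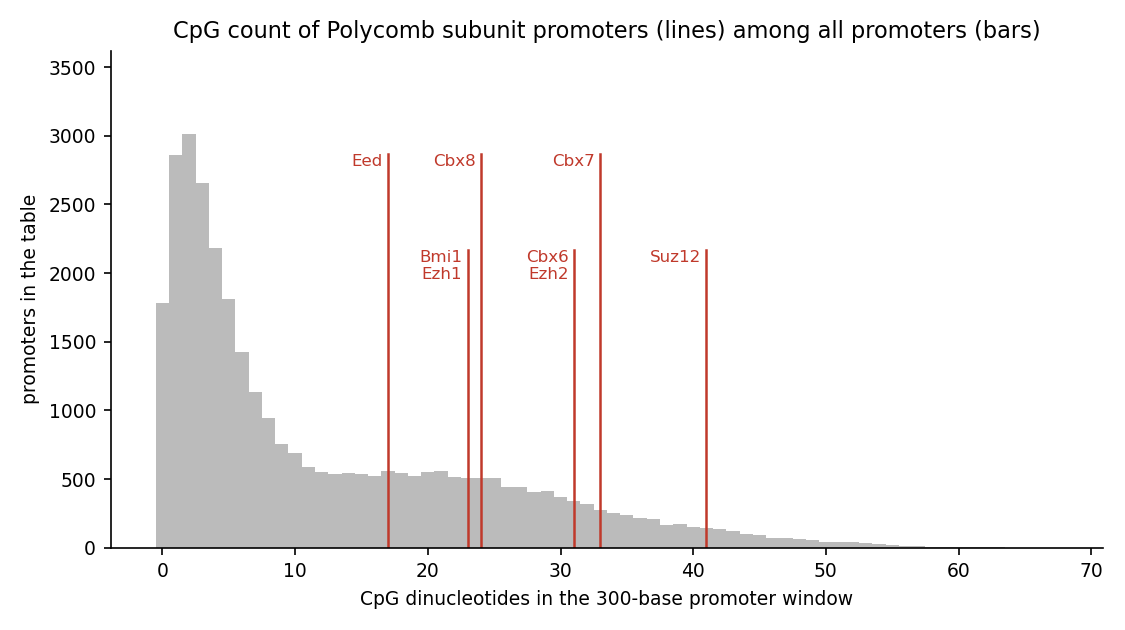
Number of CpG dinucleotides in the 300-base promoter window (horizontal axis) against the number of promoters in the table (vertical axis, grey bars), with red lines for 8 Polycomb subunits. All 8 lines, from 17 in Eed to 41 in Suz12, lie above the median of 7.

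The libraries held 19041133 to 19823369 counted reads each, and 14246 genes passed the filter on low counts. Levels are CPM (counts scaled to a common library size) after TMM scaling, or the deposited FPKM (fragments per kilobase of gene and sequencing depth) where levels of different genes are set side by side. A call is a Benjamini-Hochberg adjusted p under 0.05 from the two-sided quasi-likelihood test of edgeR over all 14246 genes, and fold changes are log2, induced minus control. Mesenchymal markers were high in sum in every library, with a summed level over 9 genes of 22962 to 24071 CPM in control and 23733 to 25187 CPM in induced cells. Most of that sum was Col1a1, Col1a2, Col3a1 and Vim. The single genes went both ways. Thy1, Eng, Col1a2 and Col3a1 were called higher, and Ly6a, Pdgfra, Pdgfrb, Col1a1 and Vim were called lower. The 4 epicardial markers summed to 347.5 to 359 CPM in control and 1021 to 1144 CPM in induced cells. Most of that sum was Upk3b, at 254 ± 0.674 and 942 ± 62.9 CPM, and Wt1 and Tcf21 also rose, while Tbx18 was called lower, at 50.7 ± 4.60 CPM in induced against 63.7 ± 4.90 CPM in control cells (edgeR adjusted p = 0.000429). The 4 endothelial markers stayed under 1 CPM in sum. The 6 cardiomyocyte markers summed to 1.50 to 1.63 CPM in control and 2.55 to 3.05 CPM in induced cells, with Myh6 at 1 read in all 6 libraries together. Of the 5 leukocyte markers, Ptprc, Cd52, Tyrobp and Itgam were at 0 reads in all 6 libraries, and the summed 1.72 to 2.15 CPM in control and 26.2 to 31.8 CPM in induced cells was all Cd68. The part of these changes in the results was not tested.

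Of the 9 Polycomb subunits, 6 were called (66.7%), against 64.8% of all genes tested. Ezh1 and Cbx7 rose, where 32.6% of all genes did, and Ezh2, Suz12, Cbx2 and Cbx6 fell, where 32.2% of all genes did. Eed, Bmi1 and Cbx8 did not pass the test. In 7 of the 9 the control and induced values did not overlap, against 68.6% of all genes. The median log2 fold change of the 9 was -0.06, beside -0.01 over all genes. Thus the number of subunits that changed was near the background, and the subunits differed in direction. In RNA from bulk cultures a change in the make-up of the culture and a change in RNA per cell cannot be told apart.

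**Figure D2:**
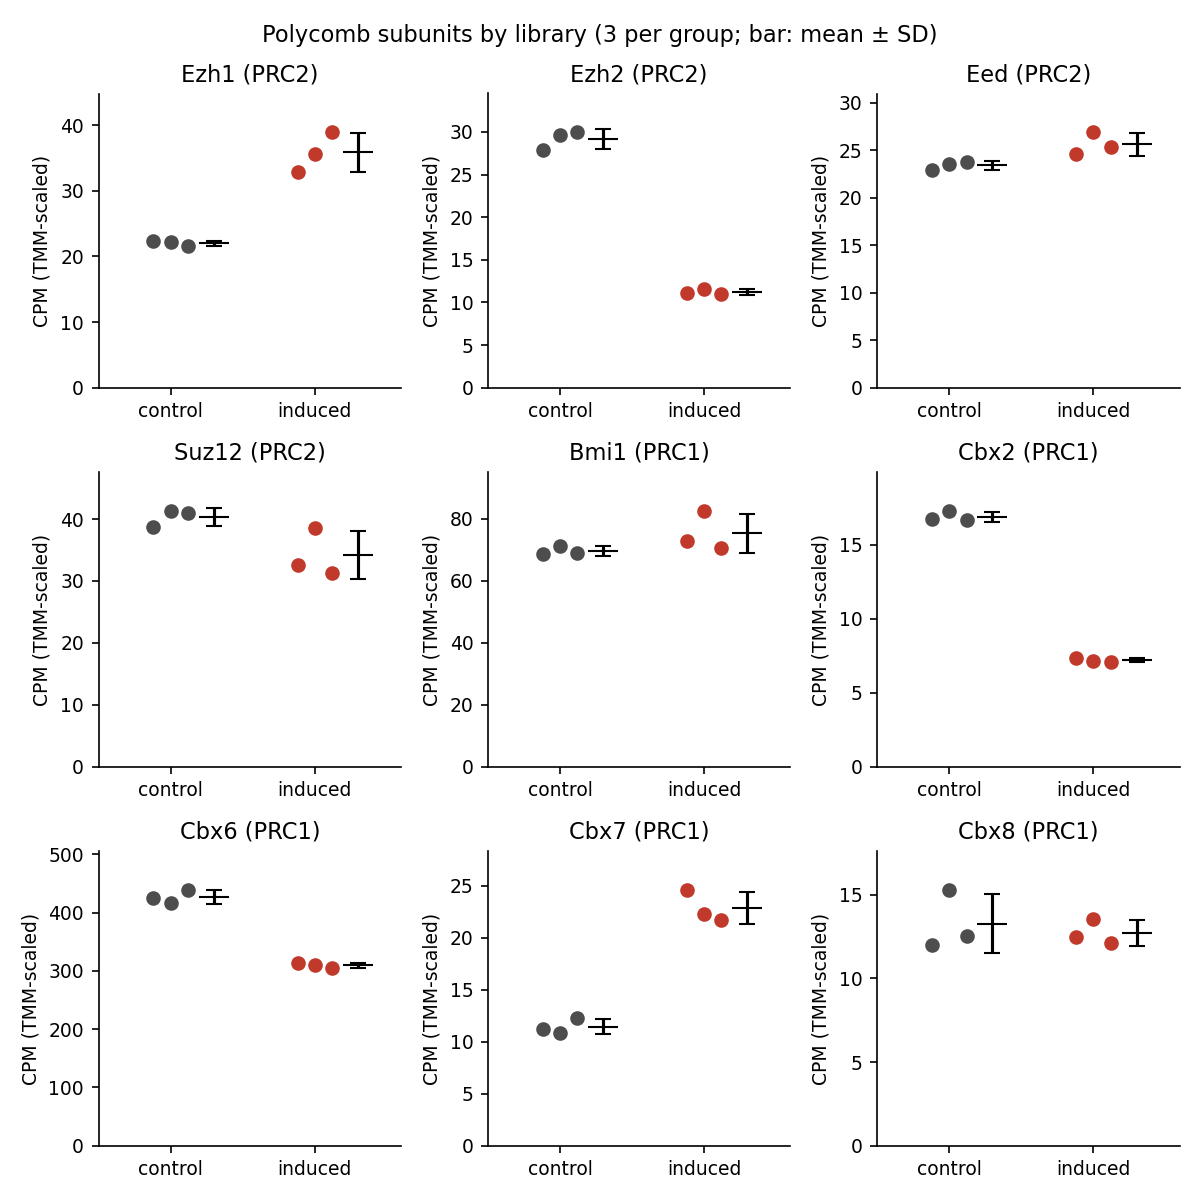
TMM-scaled CPM of the 9 Polycomb subunits (vertical axes, each from 0) in the 3 control (grey) and 3 induced (red) libraries, with bars for mean ± SD. Ezh2, Cbx2 and Cbx6 are lower and Ezh1 and Cbx7 higher in all 3 induced libraries, while the groups overlap for Bmi1 and Cbx8.

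Within PRC2, the catalytic subunits moved in opposite directions. Ezh2 (ENSMUSG00000029687, chr6:47530139-47595341, minus strand), the methyltransferase of dividing cells, was at 27.9, 29.6 and 30.0 CPM in control 1, 2 and 3 and at 11.1, 11.6 and 11.0 CPM in induced 1, 2 and 3. Every induced value lay under every control value, and the spread within each group was small. The mean fell from 29.2 ± 1.14 to 11.2 ± 0.344 CPM (SD, n = 3), a log2 fold change of -1.38 (SE 0.08, 95% interval -1.55 to -1.21, edgeR adjusted p = 3.98e-11). The level thus fell by 61.5%, and 4.88% of the genes tested had a lower fold change.

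Ezh1 (ENSMUSG00000006920, chr11:101191115-101226463, minus strand), the alternative methyltransferase, was at 22.3, 22.2 and 21.5 CPM in control cells and at 33.0, 35.7 and 39.0 CPM in induced cells. All induced values lay above the control values and were more spread out. The mean rose from 22.0 ± 0.405 to 35.9 ± 3.03 CPM, a log2 fold change of 0.71 (SE 0.07, 95% interval 0.55 to 0.86, edgeR adjusted p = 1.48e-07) or 63.0% more. Of all genes tested, 13.9% had a higher fold change.

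The ratio of the 2 enzymes was taken on the FPKM scale, which divides by gene length. That length counts all annotated exons of a gene, which may exceed the transcripts present in these cells. Ezh2 over Ezh1 was 1.39, 1.49 and 1.55 in the control libraries and 0.374, 0.363 and 0.314 in the induced libraries. Ezh2 was therefore the higher of the pair in all 3 control libraries and the lower in all 3 induced ones. In mean FPKM, Ezh2 went from 4.33 ± 0.170 to 1.68 ± 0.0488 and Ezh1 from 2.93 ± 0.0496 to 4.81 ± 0.406. The log2 ratio changed by -2.08, a 4.22-fold shift (exact permutation test, two-sided, p = 0.1, adjusted p = 0.1 over 6 ratios). With 3 against 3 libraries 0.1 is the smallest p that this test can give.

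The subunits shared by both enzymes moved less. Suz12 (ENSMUSG00000017548, chr11:79993106-80034123, plus strand), the scaffold of PRC2, was at 38.7, 41.3 and 41.0 CPM in control and 32.6, 38.6 and 31.3 CPM in induced cells. Induced 2 reached nearly the lowest control value, and the other induced libraries were clearly lower. The log2 fold change was -0.24 (95% interval -0.40 to -0.08, edgeR adjusted p = 0.00854), and without induced 3 it was -0.17 with an adjusted p of 0.0679, so the call rested on that library (adjusted p over all alternatives 3.80e-05 to 0.0679). Eed (ENSMUSG00000030619, chr7:89954654-89980983, minus strand), which binds the methylated histone tail, was at 22.9, 23.6 and 23.7 CPM in control and 24.6, 26.9 and 25.3 CPM in induced cells. Its values did not overlap, but the log2 fold change of 0.13 (95% interval -0.02 to 0.28, edgeR adjusted p = 0.129) did not pass the test. These PRC2 subunits thus had large opposite changes of the enzymes beside small differences of Eed and Suz12.

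Within canonical PRC1, Bmi1 (ENSMUSG00000026739, chr2:18677018-18686629, plus strand), a PCGF subunit known for self-renewal of stem cells, was at 68.6, 71.3 and 68.8 CPM in control and 72.9, 82.5 and 70.7 CPM in induced cells. Induced 3 lay inside the control range. The log2 fold change was 0.12 (95% interval -0.01 to 0.24, edgeR adjusted p = 0.104). Without induced 3 it was 0.17 with an adjusted p of 0.0353, so this subunit passed the test only when that library was left out, among the alternatives tried (adjusted p over all of them 0.0353 to 0.383). Its paralog Pcgf2 fell from 40.1 ± 2.49 to 33.2 ± 1.75 CPM (log2 fold change -0.27, SE 0.07, edgeR adjusted p = 0.00157). The FPKM ratio of Bmi1 over Pcgf2 was 1.63, 1.52 and 1.47 in control and 2.06, 2.21 and 1.80 in induced libraries, which did not overlap (log2 difference 0.39, exact permutation p = 0.1, the smallest possible).

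The CBX subunits, which set where canonical PRC1 docks, went in both directions. Cbx2 (ENSMUSG00000025577, chr11:119022962-119031270, plus strand), known for compacting nucleosomes, was at 16.7, 17.3 and 16.6 CPM in control and at 7.33, 7.15 and 7.08 CPM in induced cells. The 2 groups were far apart and each was tight. Its mean fell from 16.9 ± 0.349 to 7.19 ± 0.133 CPM, a log2 fold change of -1.23 (SE 0.10, 95% interval -1.44 to -1.02, edgeR adjusted p = 2.99e-09). The level fell by 57.4%. Of all genes tested, 5.81% had a lower fold change.

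Cbx7 (ENSMUSG00000053411, chr15:79915807-79971119, minus strand), the main CBX subunit of embryonic stem cells and a repressor of the Cdkn2a locus, was at 11.2, 10.9 and 12.3 CPM in control and at 24.6, 22.3 and 21.8 CPM in induced cells. Every induced value lay well above every control value. Its mean rose from 11.4 ± 0.740 to 22.9 ± 1.52 CPM, a log2 fold change of 1.00 (SE 0.09, 95% interval 0.81 to 1.19, edgeR adjusted p = 1.63e-08), and 9.32% of all genes tested had a higher one. The exons of Cbx7 overlap those of Apobec3 on the opposite strand over 1.54% of their length. Apobec3, a cytidine deaminase gene, fell from 45.9 ± 1.61 to 21.9 ± 0.400 CPM, opposite to Cbx7.

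Cbx6 (ENSMUSG00000089715, chr15:79823896-79834688, minus strand) was the most abundant of the 9 genes per length. It was at 424, 416 and 439 CPM in control and at 314, 310.5 and 306 CPM in induced cells. Its log2 fold change was -0.46 (SE 0.04, 95% interval -0.55 to -0.37, edgeR adjusted p = 3.60e-08), and the level fell by 27.3% with no overlap. Cbx8 (ENSMUSG00000025578, chr11:119036305-119040969, minus strand), a subunit that also meets transcriptional elongation factors, was at 12.0, 15.3 and 12.5 CPM in control and 12.5, 13.6 and 12.1 CPM in induced cells. These values overlapped, and the log2 fold change of -0.06 had a 95% interval of -0.29 to 0.17 (edgeR adjusted p = 0.639). A change of Cbx8 as large as that of its neighbour Cbx2 lay outside that interval, although only 5034 bases separate the 2 genes on chromosome 11.

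Set side by side per length, the 4 CBX subunits among the 9 genes changed order. Which gene of a group ranks higher depends on the length used, here that of all annotated exons. The transcripts present in these cells were not determined. In control cells the FPKM means were 39.8 ± 1.17 for Cbx6, 3.93 ± 0.0732 for Cbx2, 3.58 ± 0.468 for Cbx8 and 1.75 ± 0.117 for Cbx7. Cbx2 and Cbx8 had neighbouring values whose spreads overlapped. In induced cells they were 29.2 ± 0.399 for Cbx6, 3.52 ± 0.236 for Cbx7, 3.46 ± 0.201 for Cbx8 and 1.69 ± 0.0320 for Cbx2. Cbx7 and Cbx8 did not differ there beyond their spread, and Cbx2 had moved to the last place.

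**Figure D3:**
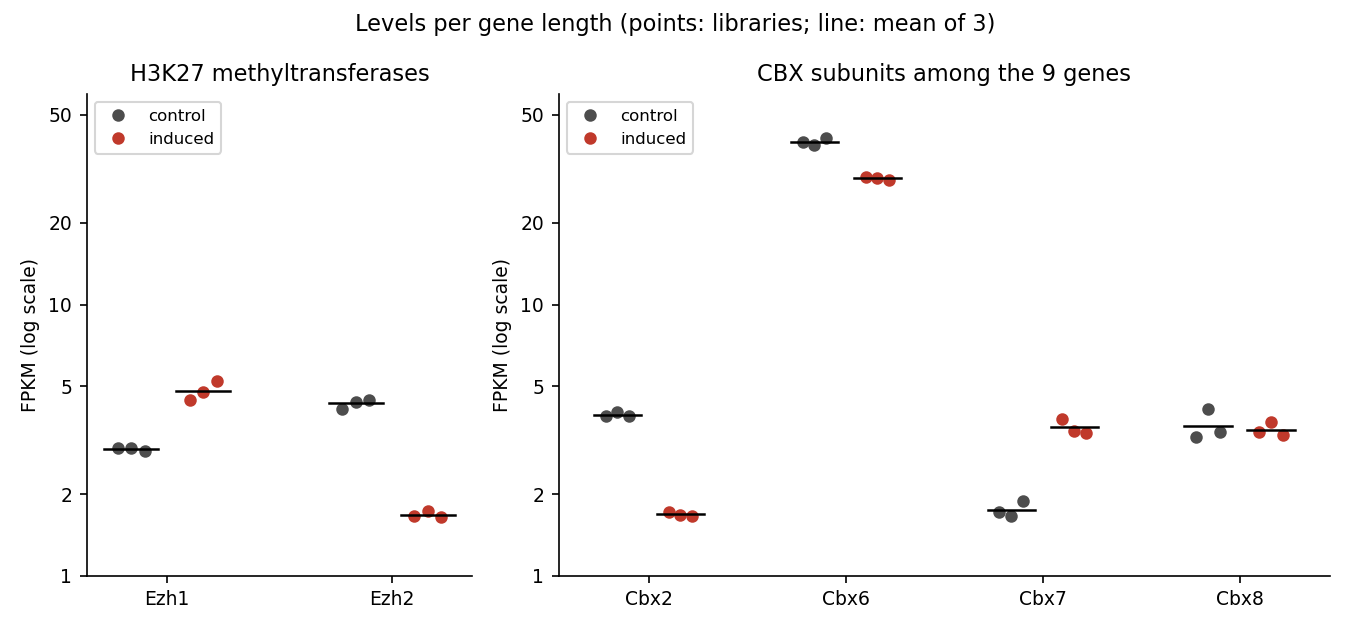
Deposited FPKM (logarithmic vertical axes) of the methyltransferase pair, left, and of the 4 CBX subunits among the 9 genes, right, with 1 point for each library and a line at the mean of 3. Ezh1 and Ezh2 exchange places between control (grey) and induced (red) cells, and so do Cbx2 and Cbx7, while Cbx6 stays the highest.

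The FPKM ratio of Cbx2 over Cbx7 was 2.28, 2.43 and 2.07 in the control libraries and 0.454, 0.489 and 0.496 in the induced libraries. This 4.70-fold shift (log2 difference -2.23) had the largest size of the 6 ratios compared. The ratio of Cbx8 over Cbx7 went from 2.04 to 0.981 (geometric means, log2 difference -1.05), that of Cbx6 over Cbx7 from 22.8 to 8.29 (-1.46), and that of Cbx2 over Cbx8 from 1.10 to 0.488 (-1.18). In each of the 6 ratios the groups did not overlap and the exact permutation p was 0.1, as was the adjusted p, which is the smallest that 20 arrangements of the libraries allow. The CBX ratios share genes with each other, so they are not independent results.

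As shares of the summed FPKM of these 4 CBX subunits, Cbx6 made up 81.1 ± 1.11% in control and 77.1 ± 0.436% in induced cells. Cbx2 went from 8.005 ± 0.271% to 4.46 ± 0.0367% and Cbx7 from 3.56 ± 0.168% to 9.30 ± 0.473%. Cbx8 was at 7.30 ± 1.02% and 9.13 ± 0.489%. The sum itself was 49.1 ± 0.989 FPKM in control and 37.8 ± 0.709 FPKM in induced cells. Without Cbx6 it was 9.25 ± 0.479 and 8.66 ± 0.320 FPKM, so most of the difference in the sum was that of Cbx6. Within the 3 others, Cbx2 went from 42.5 ± 1.50% to 19.5 ± 0.481% and Cbx7 from 18.9 ± 1.85% to 40.6 ± 1.78%, while Cbx8 was at 38.6 ± 3.03% and 39.9 ± 1.91%. Cbx2 and Cbx7 thus exchanged their shares beside Cbx8.

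The partners of both complexes were read from the same fit. Of 41 listed partner genes, 39 were tested, 11 rose and 16 fell, and 69.2% were called beside the 64.8% of all genes. The median log2 fold change was -0.05. The PRC2 accessory list holds genes that steer the core to chromatin, and also the histone-binding subunits Rbbp4 and Rbbp7, often counted as core. Of its 9 tested genes 2 were higher and 5 lower, so 77.8% were called. Over all genes 64.8% were called, with 32.6% higher and 32.2% lower. The median log2 fold change of this list was -0.16. Rbbp4 was at -0.16 and called lower, and Rbbp7 at -0.05 did not pass the test (edgeR adjusted p = 0.00494 and 0.353). Phf19, a Polycomb-like protein, fell from 12.8 ± 0.824 to 2.60 ± 0.127 CPM (log2 fold change -2.30, SE 0.13, edgeR adjusted p = 3.56e-11). Epop, an adaptor between PRC2 and elongin, fell from 8.64 ± 0.847 to 2.35 ± 0.240 CPM (-1.87). Another Polycomb-like gene, Phf1, rose from 26.9 ± 1.50 to 40.7 ± 1.19 CPM (0.60), with 39.3% of its exon length opposite other genes. Lcor, whose locus also encodes the PRC2 cofactor PALI1, rose from 3.61 ± 0.487 to 6.92 ± 1.25 CPM (0.94). The third Polycomb-like gene, Mtf2, fell from 12.4 ± 1.03 to 10.1 ± 1.09 CPM (-0.30, edgeR adjusted p = 0.0267), so Phf1 was alone among these 3 in rising.

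Of the canonical PRC1 partners, 3 of 9 tested rose and 4 fell, with a median of 0.10, which was 0.04 without control 2 and 0.16 without control 3. Of all genes, 32.6% rose and 32.2% fell. Among the Polyhomeotic genes, which polymerise PRC1, Phc1 fell from 42.1 ± 0.676 to 26.0 ± 1.69 CPM (log2 fold change -0.70) and Phc3 rose from 46.1 ± 0.277 to 59.8 ± 3.12 CPM (0.37). Scml2 fell from 1.48 ± 0.301 to 0.492 ± 0.0619 CPM (-1.58) on 88 and 28 reads in all. The ubiquitin ligases that every PRC1 contains did not pass the test, with log2 fold changes of 0.14 for Ring1 and 0.10 for Rnf2 (edgeR adjusted p = 0.175 and 0.215).

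Of the partners of variant PRC1, which lacks a CBX subunit, 6 of 21 tested rose and 7 fell, with a median of -0.04. The 61.9% called were near the 64.8% of all genes. Pcgf5, the PCGF subunit of a variant complex, rose from 35.8 ± 0.905 to 67.7 ± 1.09 CPM (log2 fold change 0.92, SE 0.05, edgeR adjusted p = 3.36e-11). Rybp, which takes the place of the CBX protein there, rose from 12.4 ± 1.18 to 18.1 ± 3.01 CPM (0.54). Tfdp1, the partner of E2F factors, fell from 119.9 ± 1.99 to 79.1 ± 7.74 CPM (-0.60), and Auts2 fell from 97.5 ± 2.24 to 76.6 ± 7.75 CPM (-0.35). Counts in all 3 partner lists therefore went both ways.

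**Figure D4:**
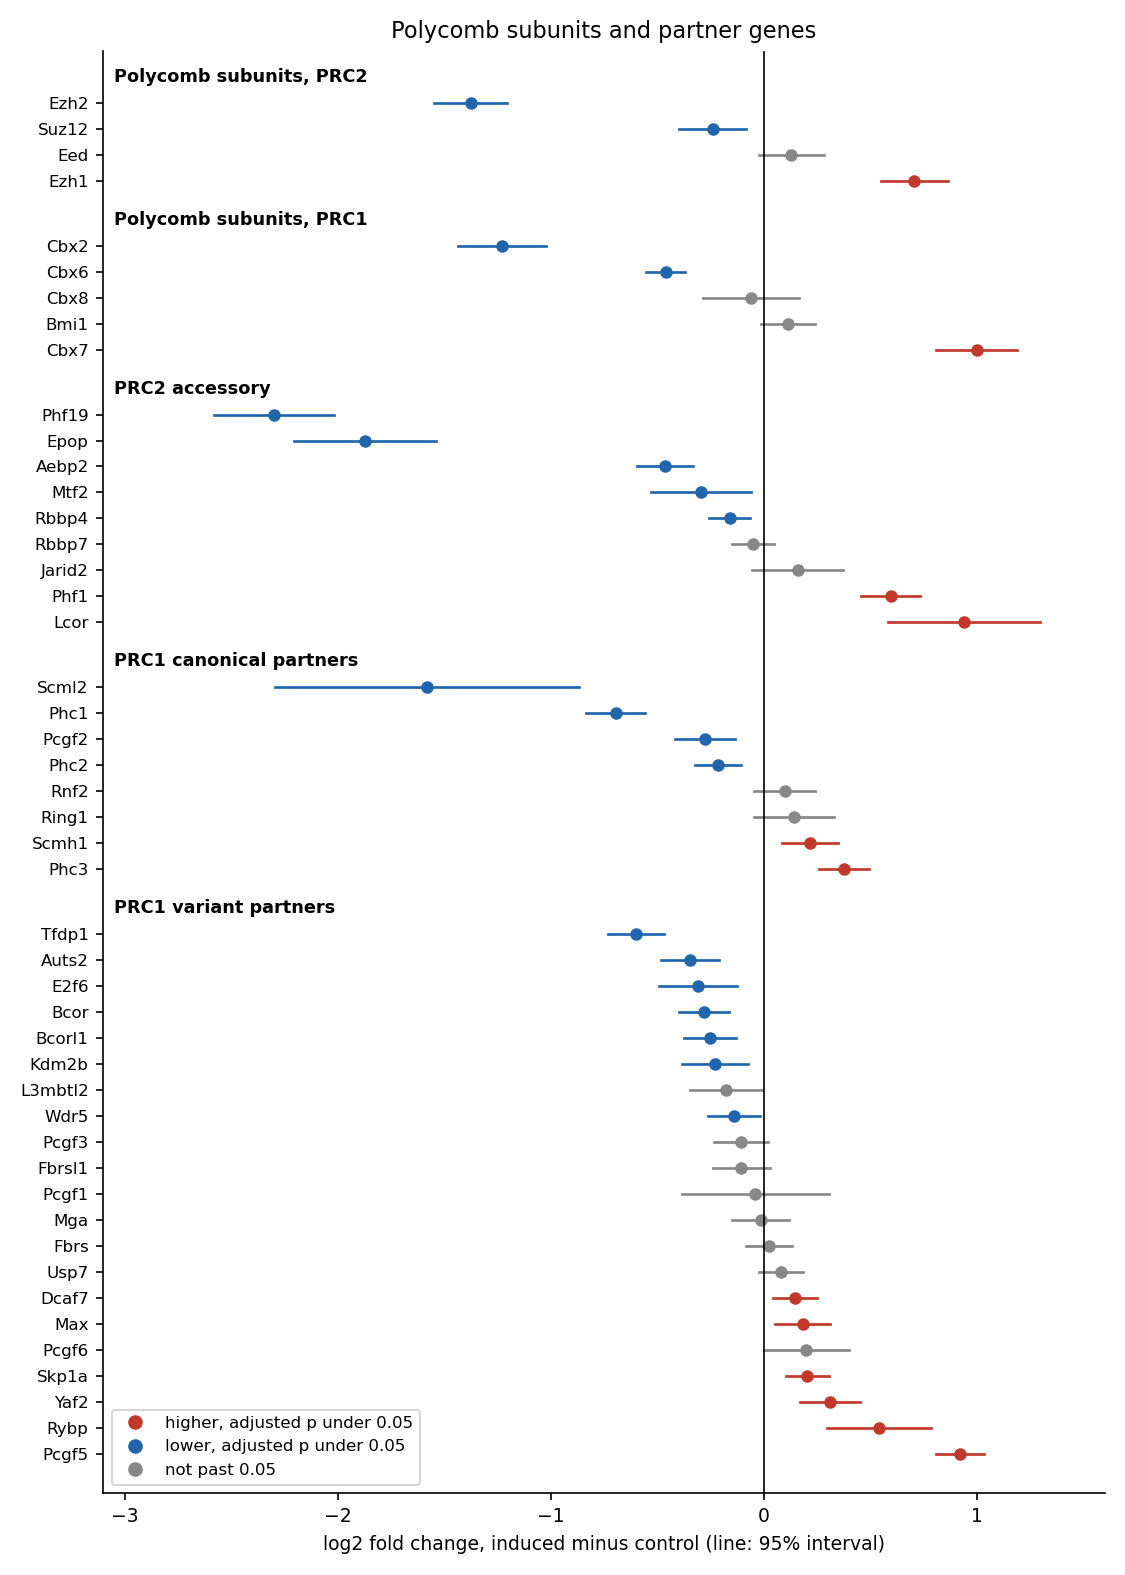
Log2 fold change, induced minus control, with its 95% interval (horizontal axis) for the 9 Polycomb subunits and tested partner genes, grouped by list. Blue genes fell, red genes rose and grey genes did not pass an adjusted p of 0.05, and Phf19 at -2.30 and Cbx7 at 1.00 mark the ends of the range.

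Enzymes that work against Polycomb marks were compared in the same way. In the PR-DUB complex, which removes ubiquitin from histone H2A, 5 of 10 tested genes fell and none rose, with a median of -0.20 (with another scaling 1 rose, as it did without induced 1). The background was 32.2% lower and 32.6% higher over all genes. The log2 fold changes were -0.52 for Foxk1, -0.49 for Asxl1, -0.46 for Hcfc1 and -0.41 for the deubiquitinase Bap1. Of 8 opposing enzymes 1 rose and 3 fell, so 50% were called beside 64.8% of all genes. Kmt2c rose from 35.7 ± 2.82 to 52.8 ± 5.40 CPM (0.56), while its relative Kmt2d fell from 101 ± 3.70 to 74.4 ± 4.70 CPM (-0.44), Kmt2a changed by -0.28 and Kmt2b by -0.19. Without induced 2, 5 of the 8 fell. The demethylases that erase the PRC2 mark, Kdm6a and Kdm6b, had log2 fold changes of 0.13 and 0.07 and did not pass the test (edgeR adjusted p = 0.225 and 0.273).

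Genes known from other systems as targets of Polycomb silencing ranged from no reads to high levels. Of 27 listed, 16 were not tested, holding 25 reads over the control and 22 over the induced libraries, and 9 of these were at 0 in all 6 libraries. Cdkn2a and Cdkn2b, the cell cycle inhibitor genes on chromosome 4 that Bmi1 and Cbx7 are known to repress, had 0 reads in each of the 6 libraries, which allows at most 0.151 to 0.158 CPM in a library. Of the 11 tested, 4 rose and 4 fell, with a median of -0.02, and the 72.7% called stood beside 64.8% of all genes. Gata4, a cardiac transcription factor, rose from 185 ± 2.09 to 278 ± 4.23 CPM (log2 fold change 0.59), and Pax2 had 1 read over the 3 control and 109 over the 3 induced libraries. The T-box genes Tbx3 and Tbx5 fell from 5.53 ± 0.412 to 1.79 ± 0.103 CPM (-1.62) and from 15.4 ± 0.549 to 9.63 ± 0.199 CPM (-0.67). Histone marks on these genes were not analysed here.

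Genes of cell division fell alongside Ezh2 and Cbx2. Of 21 listed, 20 fell and 1, E2f1, rose, beside 32.2% and 32.6% of all genes. Their median log2 fold change was -1.69, against -0.01 over all genes. The log2 fold changes with the largest size were -2.39 for Cdc20, -2.24 for Plk1, -2.17 for Ccnb2 and -2.09 for Foxm1. Their summed level was 1722, 1764 and 1696 CPM in control 1, 2 and 3 and 655, 662 and 653 CPM in induced 1, 2 and 3. As a percent of this sum, Ezh2 was at 1.62, 1.68 and 1.77 in control and 1.69, 1.76 and 1.69 in induced libraries. These values overlapped, with means of 1.69 ± 0.0759 and 1.71 ± 0.0400. The share depends on how the list is summarised, because the sum gives more weight to genes with more reads. Ezh2, with a log2 fold change of -1.38, fell less than the list median of -1.69. This share was not among the comparisons planned beforehand. Cbx2 was at 0.977 ± 0.00511 and 1.10 ± 0.0220 percent of the sum, 1.12 times as high in induced cells and without overlap. Its induced values rest on 138, 136 and 135 reads. The other 7 subunits were 1.91 (Cbx6) to 5.26 (Cbx7) times as high against that sum in induced cells. Because the sum fell, a gene whose CPM did not change also comes out higher against it. Cbx8, which was not called, was at 2.52, and Suz12 and Cbx6, which were called lower, were at 2.225 and 1.91. Phf19 and Epop went the other way, from 0.743 ± 0.0327 to 0.396 ± 0.0220 percent and from 0.501 ± 0.0557 to 0.359 ± 0.0387 percent. The part of cell division in the change of any subunit was not tested.

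**Figure D5:**
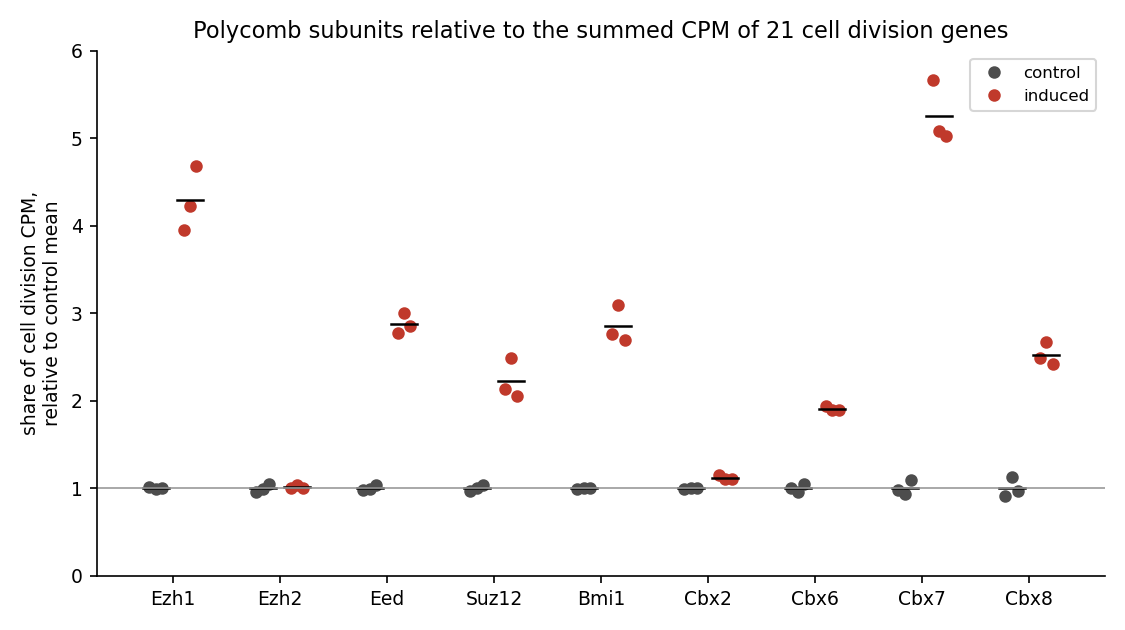
Level of each Polycomb subunit as a share of the summed CPM of 21 cell division genes, divided by the control mean (vertical axis from 0), with 1 point for each library and a line at the mean of 3. Ezh2 is the only subunit whose induced (red) and control (grey) points overlap near 1, and Cbx7 is the highest at 5.26. The sum fell in induced cells, so a gene of unchanged CPM lies above 1. The sum gives more weight to genes with more reads.

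The place of the members in the genome was compared with their chromosomes. Chromosome 15, with Cbx6 and Cbx7 81118 bases apart, had a median log2 fold change of -0.24 over 561 tested genes, of which 51.3% fell and 20.5% rose. Cbx6 at -0.46 went with that median and Cbx7 at 1.00 went against it. Chromosome 11, with Suz12, Ezh1, Cbx2 and Cbx8, had a median of 0.03 over 1132 tested genes. The neighbours Cbx6 and Cbx7, like Cbx2 and Cbx8, thus had unlike fold changes. Small parts of the exons of Ezh2 (2.61%), Eed (6.82%) and Suz12 (3.60%) lie opposite another gene, and 5.31% of Cbx6 lies in Npcd on the same strand, which had 1 read in the control and 2 in the induced libraries. The strand setting of the counting is not stated, so reads from the stretches opposite another gene cannot be told apart. In the stretch that Cbx6 shares with Npcd, strand could not tell them apart under any setting.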

How the data were processed

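RNA sequencing was done on 3 control and 3 induced samples. The authors deposited raw read counts per gene and library, and FPKM in the same table, which they computed from these counts with gene length and library depth. Their processing notes name HISAT2 2.0.5, featureCounts 1.5.0-p3, DESeq2 1.16.1 and mm10. The strand setting is not given in the sources used here. The authors' fold changes, p-values and Gene Ontology tables were not used. All 9 members have the coordinates of GENCODE M21 (GRCm38).

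The counts were fitted with edgeR 4.0.16 under R 4.3.3, using filterByExpr (minimum count 10, minimum total 15), TMM scaling (factors 0.9801 to 1.0156), the quasi-likelihood test over 14246 genes, and Benjamini-Hochberg adjustment at 0.05. A prior count of 0.125 enters the fitted fold changes. The biological coefficient of variation was 5.82%. Limits for a count of 0 take 3 reads and cover counting error only. Libraries of a group differed by more than sampling noise (chi-square per degree of freedom 2.56 to 8.91). Paralog ratios of deposited FPKM were compared by exact permutation over libraries. The scripts were checked on simulated data.

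Alternatives were DESeq2 1.42.0, its size factors in edgeR, scaling by totals only, testing without the filter or with a stricter one (10 mean counts and 1 CPM in 3 libraries), limma 3.58.1 on FPKM with a pseudocount of 1 or 0.1 before log2, the replicate number as a block, and leaving out each library.

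The members and the 7 gene lists were chosen with earlier results of these data known. Named genes were the 9 members, from each list up to 4 called genes with the largest absolute fold change and at least 1 CPM in the higher group, Cdkn2a, Cdkn2b, and the paralog Pcgf2. The values of 1 listed gene are not reported here. E2f1, Mtf2, Rbbp4, Rbbp7, Ring1, Rnf2, Kdm6a, Kdm6b, Apobec3 and Npcd were added after their values were seen. Promoter sequences came from RefSeq (GRCm38.p6), and figures were drawn with matplotlib 3.10.9.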

Additional observations from a re-analysis of the deposited data

How the results depend on the processing

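Over 14 alternatives 8514 to 9765 genes were called, and 6 Polycomb subunits under each of them. DESeq2 called 8593 genes, of which 8580 were also called by edgeR. Ezh1, Ezh2, Cbx2, Cbx6 and Cbx7 kept direction and call under all 14. Leaving out 1 library at a time gave log2 fold changes of -0.33 to -0.17 for Suz12 and 0.051 to 0.17 for Bmi1, each changing its call without induced 3. The sign of Cbx8 varied (-0.12 to 0.05) and it was never called. With DESeq2 size factors in edgeR 1 PR-DUB gene was called higher, and leaving out 1 library gave 0 to 1. Opposing enzymes called lower were 3 to 5 with 1 library left out. With 1 library left out, median log2 fold changes were -0.12 to 0.0502 for the 9 subunits, 0.04 to 0.16 for canonical and -0.12 to 0.0208 for variant PRC1 partners, -0.15 to 0.11 for the listed targets and -1.73 to -1.62 for cell division. The PRC2 accessory median was -0.20 with library totals alone and -0.10 with no filter, the median of targets -0.13 with no filter, and that of cell division -1.32 on log2(FPKM + 1) and -1.61 on log2(FPKM + 0.1). A larger pseudocount shrinks changes by construction. For the other differences the cause was not tested. Over all alternatives, variant PRC1 partners called lower were 5 to 8 and targets called higher 3 to 5. Of 126 subunit fold changes 124 kept their side of the threshold, although Ezh2 was -0.99 on log2(FPKM + 1), and the 42 ratios kept their direction.

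Same-numbered libraries did not deviate together (correlations -0.03, -0.03 and 0.03). With 3 libraries in a group this cannot show whether the samples were paired, and the main fit did not pair them. With a replicate block 9063 genes and 6 subunits were called (2 higher, 4 lower), and the log2 fold changes were -1.38 for Ezh2 and 1.00 for Cbx7.

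Counts of the 9 subunits ran from 135 (Cbx2 in induced 3) to 8765 (Cbx6 in control 3) per library. Counting error is thus larger for some subunits than for others. Other limits are the 3 libraries of a group, 1 cell line, and the effects of drug, serum and time, which the labels do not allow to be told apart.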

Other observations

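The genes around Cdkn2a and Cdkn2b, which had 0 reads, were looked up after their values were seen. Mtap, on the Cdkn2a side of the locus on chromosome 4, had 6934 reads over the control and 4903 over the induced libraries, and Klhl9, farther out, had 4481 and 3769. Dmrta1, on the Cdkn2b side, had 0 and 7. Whether the Cdkn2 locus is intact in these cells was not tested, and a count of 0 does not tell a silent gene from an absent one.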
